A study of Bos grunniens x Bos taurus and Bos grunniens with 12 samples.

Results

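The small RNA of milk exosomes was compared between Jeryak and yak in June, in 3 libraries of each. The Jeryak is the hybrid of the yak with Jersey cattle (Bos grunniens x Bos taurus in the labels, where its milk is called cattle-yak milk), and the yak (Bos grunniens) is its parent species of the Tibetan plateau. All animals were lactating adults, no treatment is named in the labels, and the exosomes were taken from the milk by density gradient centrifugation. The series holds 12 libraries, and the other 6 are Jeryak and yak milk of December. The milk profiled was of 3 Jeryaks and 3 yaks by the study's account, and the p-values measure the spread between these libraries. The table lists 2263 entries, and 516 were compared, namely those that reached a norm value of 10 in 3 or more June libraries. Of these, 211 of 583 were named after cattle precursors (bta), 144 of 526 after precursors of other species and 161 of 1154 were predicted candidates (PC). Of the tested entries, 266 reached 10 in all 6 libraries and 87 in exactly 3, with the third-highest value at 10.2 to 72.4. A further 157 reached it in 2 libraries, with the third-highest value at 0 to 9.87, and were left out. Among the tested entries, 9 were kept through the Jeryak libraries alone and 8 through the yak libraries alone. These 17 had to differ, so their values are given below as a description, without p-values, and the counts that hold them are split. A norm value is the copy number of a sequence multiplied by 1 correction factor per library, as the authors made it.

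MicroRNAs are short RNAs that bind partly matching sites in messenger RNAs, mainly through the seed near their 5′ end, and lower the translation or the stability of the message. Milk exosomes are vesicles shed largely by the secretory cells of the udder, and they carry miRNAs into the milk. The set found in milk of cattle and related species is dominated by miR-148a, the miR-30 family, miR-21 and the epithelial miR-200 family, while the cells that milk also holds, such as leukocytes, bring in miRNAs of their own.

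In the names of the entries, L and R with a signed number give bases added or missing at the left or right end relative to the miRBase sequence, and a part such as 1ss marks a substitution within it. Names in mir- with p5 or p3 are arms of a precursor for which miRBase lists no mature sequence. The sequences below are those of the deposited table, written as DNA with the seed (bases 2 to 8) in capitals. The 8 highest miRBase entries over the 6 libraries show what the milk mostly contained, and miR-200b and miR-200c among them share a seed.
bta-miR-30a-5p: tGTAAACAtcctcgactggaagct
bta-miR-148a: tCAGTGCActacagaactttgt
bta-miR-21-5p_R-2: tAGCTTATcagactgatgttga
bta-miR-320a: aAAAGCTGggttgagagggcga
bta-miR-200a: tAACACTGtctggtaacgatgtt
bta-miR-186: cAAAGAATtctccttttgggct
bta-miR-200b_R+1: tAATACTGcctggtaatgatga
bta-miR-200c: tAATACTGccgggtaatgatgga

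The next sequences are cattle entries whose values did not overlap between Jeryak and yak, with the first 5 higher in Jeryak and the last 5 lower.
bta-miR-6524_R+1: tTACTCTGagtaacctaactgt
bta-miR-2285k_R+1: aAAACCGGaatgaactttttgg
bta-miR-182_R-2: tTTGGCAAtggtagaactcaca
bta-miR-11975_L-1: gCGGCGGCggcgccggggc
bta-miR-10a_R-1: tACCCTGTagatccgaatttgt
bta-miR-2904_L-1R+3: gGAGCCTCggttggcctcgga
bta-miR-193a-3p: aACTGGCCtacaaagtcccagt
bta-miR-335_R-2: tCAAGAGCaataacgaaaaat
bta-miR-101_R-1: tACAGTACtgtgataactga
bta-miR-345-5p: gCTGACTCctagtccagtgct

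Among the other entries, the predicted candidates with the smallest p in each direction are shown. The first 2 were higher in Jeryak and the last 3 lower. All except PC-5p-384_17873 were kept through the libraries of a single breed, so they had to differ. For these the order by p carries no weight.
PC-3p-38692_154: gGGCCTCTctcgagctggtg
PC-5p-95412_48: tGAGGGGGcccttaatac
PC-3p-9570_769: cATACACTgggtgagactg
PC-5p-384_17873: cACTGTTTgtctgagtct
PC-3p-43357_134: aAGATGAAaagcactttggaa

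The summed norm values were 654242 to 725582 in the Jeryak libraries and 625847 to 816871 in the yak libraries. The norm value of 1 copy was 1.85 to 2.47 in Jeryak and 1.02 to 3.30 in yak, so that the minimum of 10 corresponded to 3.03 to 9.81 copies. Low values therefore rest on few copies. On the log2 scale the median SD between libraries of a group was 0.92 in Jeryak and 1.14 in yak, and for bta entries alone 0.78 in Jeryak and 0.70 in yak. The correlation of log2 values across the tested entries was 0.712 to 0.800 within a group and 0.635 to 0.759 between groups, a description over entries that share their libraries. For bta entries the ranges were 0.798 to 0.910 within a group and 0.802 to 0.898 between groups. The bta ranges largely coincided.

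None of the 516 entries passed an adjusted p of 0.05 between Jeryak and yak (0.0%; limma on log2 of the norm value plus 1). Among bta entries the lowest limma adjusted p was 0.155. At an unadjusted p under 0.05 there were 66 entries (12.8%), of which 36 (6.98%) were higher in Jeryak and 30 (5.81%) lower. The 17 entries kept through 1 breed alone made up 16 of the 66. By class there were 11 bta entries (5.21%), 15 of other species (10.4%) and 40 candidates (24.8%). Of these, 2 bta entries, 4 of other species and 10 candidates were kept through 1 breed alone. The December libraries had a smaller spread, with a median SD of 0.36 in Jeryak and 0.24 in yak, and of 0.51 in Jeryak and 0.42 in yak for bta entries. Of the 516 entries, 149 were at 0 in every December library and so had no spread there. With these libraries in the fit, 29 entries (5.62%) passed, 14 higher in Jeryak (2.71%) and 15 lower (2.91%), and 5 of the 211 bta entries (2.37%) were among them. The entries kept through 1 breed alone were 15 of the 29. By the criteria of the study, a two-sample test on norm values with p not adjusted and an absolute log2 fold change of 1 or more, 22 of 1730 entries were taken, 14 higher in Jeryak and 8 lower.

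The 3 Jeryak values lay wholly above or wholly below the 3 yak values in 92 entries (17.8%), of which 46 (8.91%) were higher in Jeryak and 46 (8.91%) lower. All 17 entries kept through 1 breed alone were among the 92. Among bta entries there were 32 without overlap (15.2%), with 16 (7.58%) in each direction, and 2 of the 32 were kept through 1 breed alone. The median log2 fold change was 0.39 over all tested entries, 0.08 over bta entries, 0.48 over entries of other species and 1.43 over predicted candidates. A positive value was found in 115 of 211 bta entries, in 92 of 144 entries of other species and in 111 of 161 candidates. With the values scaled to library totals, to bta totals or by the median ratio, the median over all entries was 0.44, 0.46 and 0.35. It moved more with single libraries, to 0.20 without Jeryak replicate 2, 0.27 without yak replicate 2 and 0.53 without Jeryak replicate 1. The median over bta entries ran from -0.06 (without Jeryak replicate 2) to 0.14 (without yak replicate 2), and that over candidates from 0.69 (without yak replicate 2) to 1.97 (without yak replicate 1).

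**Figure D1:**
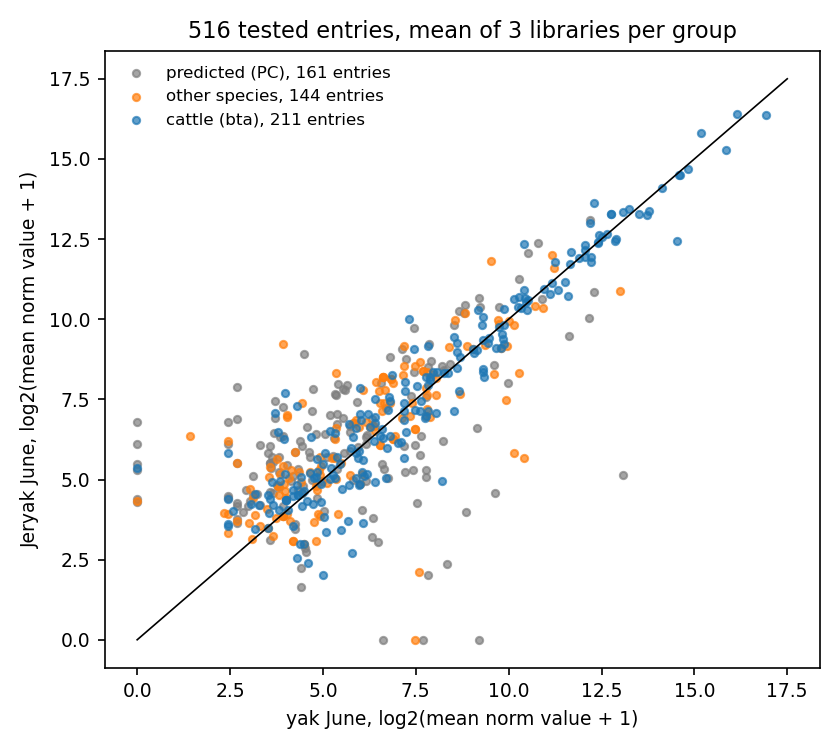
Mean norm value of each tested entry in Jeryak (vertical axis) and yak (horizontal axis) in June, on the log2(mean + 1) scale, 1 point per entry, coloured by class, with the line of equal values. The abundant bta entries lie close to the line, with a median log2 fold change of 0.08 over 211 entries, and the scatter is wider among low entries and predicted candidates.

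The entries above 0 numbered 613, 1106 and 868 in the Jeryak libraries, against 550, 585 and 583 in the yak libraries. The difference lay mostly in predicted candidates, with 223, 552 and 426 above 0 in Jeryak and 203, 153 and 183 in yak. All 3 Jeryak libraries held more candidates than any yak library, and the exact permutation test gave p = 0.1 (two-sided), the smallest that 3 libraries against 3 allow. Jeryak replicate 1, with 223, was close to the highest yak library, with 203. The copies summed over entries were 354008, 328723 and 294073 in Jeryak, against 247528, 614066 and 267007 in yak. The yak library with the most copies had the fewest candidates. The part of depth in the number of candidates was not tested.

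By summed norm value the classes overlapped between breeds. The bta entries held 86.3 ± 3.04% in Jeryak and 87.6 ± 3.21% in yak (SD, n = 3 each; exact permutation p = 0.7), entries of other species 5.75 ± 1.32% in Jeryak and 5.55 ± 1.24% in yak (exact p = 0.7), and candidates 7.99 ± 1.80% in Jeryak and 6.85 ± 2.05% in yak (exact p = 0.5). The lengths differed more. Sequences of 19 nt took 5.29 ± 1.18% in Jeryak and 2.88 ± 1.15% in yak, those of 21 nt 11.1 ± 1.32% in Jeryak and 13.9 ± 1.12% in yak, and those of 24 nt 14.1 ± 4.90% in Jeryak and 19.4 ± 1.60% in yak (SD, n = 3 each). Each of these 3 had an exact permutation p = 0.1, the smallest possible, among 7 lengths tested, and none can reach 0.05 in this design. The 24 nt class holds miR-30a-5p, the entry with the highest mean. It alone took 12.2 ± 4.88% in Jeryak and 17.4 ± 1.58% in yak (SD, n = 3 each, exact permutation p = 0.2). Jeryak minus yak was -5.18 points for this entry, -5.30 for all of 24 nt and -4.93 for the 10 highest entries, which also hold it. The 10 highest entries together took 54.4 ± 2.38% in Jeryak and 59.4 ± 1.46% in yak (exact permutation p = 0.1).

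**Figure D2:**
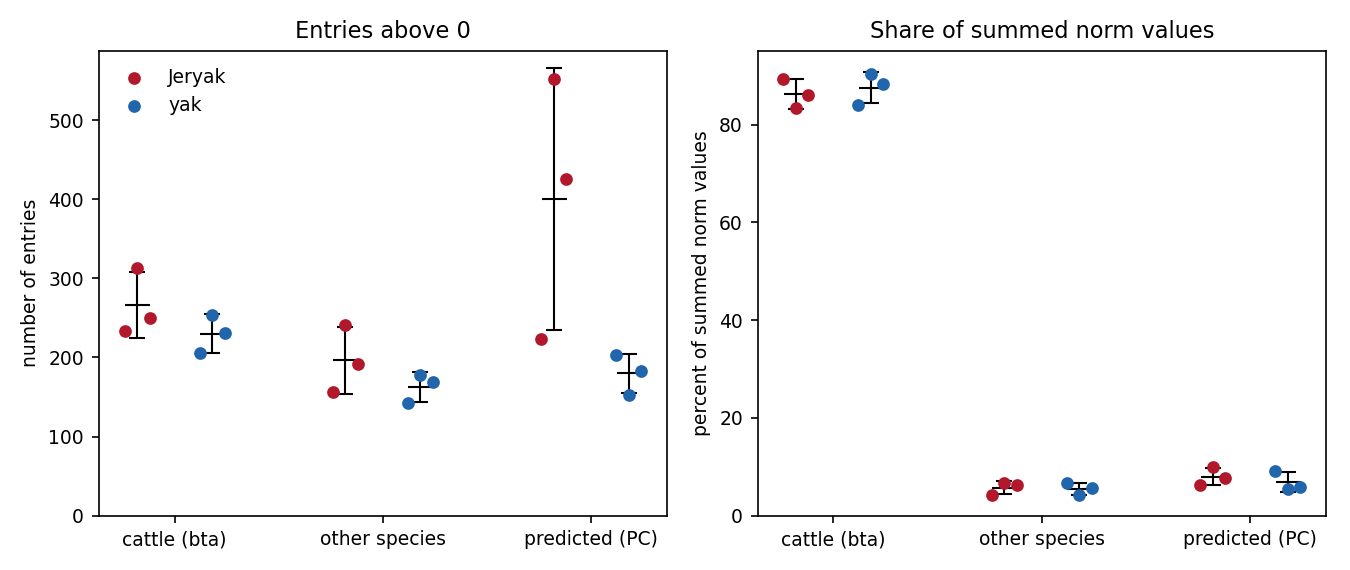
Number of entries above 0 (left) and percent of summed norm values (right) for each class, 1 point per library, Jeryak left of yak, with the mean and SD of 3 libraries. Predicted candidates above 0 number 223 to 552 in Jeryak and 153 to 203 in yak, while the shares of the summed norm values overlap in every class.

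None of the 8 highest miRNAs of the milk passed between the breeds. bta-miR-30a-5p had norm values of 90768, 46188 and 116045 in the Jeryak libraries, against 127733, 117327 and 126728 in the yak libraries. All Jeryak values were below all yak values, and the difference did not pass (log2 fold change -0.65 ± 0.44, SE, limma adjusted p = 0.539, 95% interval -1.64 to 0.33). bta-miR-148a, the best-known miRNA of milk, which represses the DNA methyltransferase DNMT1, had 90126, 84361 and 87217 in the Jeryak libraries, against 82407, 64287 and 70441 in the yak libraries. Here every Jeryak library was above every yak library (log2 fold change 0.28 ± 0.35, SE, limma adjusted p = 0.754), and the interval of -0.51 to 1.07 holds differences in either direction.

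bta-miR-21-5p, a miRNA that targets PDCD4, had 52445, 39563 and 26514 in the Jeryak libraries, against 81998, 53527 and 40589.9 in the yak libraries. The groups overlapped (log2 fold change -0.57 ± 0.43, SE, limma adjusted p = 0.596). bta-miR-320a, which is made without Drosha, had 18607, 96851 and 58017 in the Jeryak libraries, against 21081, 19848 and 70879 in the yak libraries. The groups overlapped, with 1 low library in Jeryak and 1 high library in yak (log2 fold change 0.61 ± 0.70, SE, limma adjusted p = 0.721). Of the remaining 4 of the highest 8, miR-200a, miR-186, miR-200b and miR-200c, the log2 fold changes ran from -0.08 to 0.03 and all groups overlapped.

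Among the bta entries that did not overlap and were higher in Jeryak, bta-miR-6524_R+1 had the smallest p. Its norm values were 133, 152 and 188 in the Jeryak libraries, against 16.5, 13.2 and 26.8 in the yak libraries. The lowest Jeryak value was well above the highest yak value (log2 fold change 3.04 ± 0.81, SE, limma adjusted p = 0.155, 95% interval 1.22 to 4.86), and with 12 libraries in the fit the limma adjusted p was 0.0055. bta-miR-182_R-2, a member of the miR-183 cluster, which is transcribed together with miR-96 and miR-183, had 506, 480.0 and 632 in the Jeryak libraries, against 218, 131 and 174 in the yak libraries. The Jeryak libraries lay close together, all above the highest yak library (log2 fold change 1.64 ± 0.50, SE, limma adjusted p = 0.203), and the limma adjusted p with 12 libraries was 0.0568.

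Several entries were near the floor in yak. bta-miR-2285k_R+1 belongs to a large group of miRNAs first known from cattle. It had 17.6, 26.2 and 75.7 in the Jeryak libraries, against 0, 0 and 0 in the yak libraries. No yak library listed it above 0, and against the mean floor of 3 copies per library it was at least 5.68-fold higher in Jeryak (3.12-fold without Jeryak replicate 3). The entry was kept through the Jeryak libraries alone. The floor, used for every bound below, was set and not measured, and a higher floor would give lower bounds. bta-miR-11975_L-1 had 64.7, 168 and 167 in the Jeryak libraries, against 36.3, 0 and 0 in the yak libraries, and bta-mir-6715-p3 had 135, 44.2 and 88.8 in the Jeryak libraries, against 0, 38.7 and 0 in the yak libraries. Both were at 0 in 2 yak libraries and above 0 in the other (log2 fold change 5.20 ± 1.60, SE, limma adjusted p = 0.214 and log2 fold change 4.59 ± 1.66, SE, limma adjusted p = 0.255).

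bta-miR-1246_R+2, whose human counterpart matches part of the U2 small nuclear RNA, had 1779.7, 775 and 498 in the Jeryak libraries, against 459, 13.2 and 0 in the yak libraries. The yak libraries ranged from 0 to near the lowest Jeryak value (log2 fold change 5.56 ± 1.84, SE, limma adjusted p = 0.23). bta-miR-10a_R-1, encoded within a HOX gene cluster, had 18.5, 18.9 and 128 in the Jeryak libraries, against 0, 0 and 13.4 in the yak libraries. Jeryak replicate 3 carried most of its level (log2 fold change 3.92 ± 1.65, SE, limma adjusted p = 0.367). bta-miR-2478_L-2 had 539.6, 714 and 851 in the Jeryak libraries, against 271, 399 and 437 in the yak libraries, a smaller difference in which the groups lay close (log2 fold change 0.93 ± 0.46, SE, limma adjusted p = 0.424).

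In the other direction, bta-miR-2904_L-1R+3 had the smallest p. Its norm values were 2870.1, 10977 and 2803 in the Jeryak libraries, against 23078, 11351 and 36648 in the yak libraries. The highest Jeryak value and the lowest yak value were almost equal, and the other 4 libraries were far apart (log2 fold change -2.25 ± 0.64, SE, limma adjusted p = 0.176). bta-miR-193a-3p had 16.6, 0 and 0 in the Jeryak libraries, against 42.9, 76.4 and 42.9 in the yak libraries. It was at 0 in 2 Jeryak libraries and at 42.9 or more in every yak library (log2 fold change -4.35 ± 1.54, SE, limma adjusted p = 0.243, and 0.0154 with 12 libraries, the only bta entry lower in Jeryak that passed there).

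bta-miR-335_R-2, which lies in an intron of the imprinted gene MEST, had 46.2, 33.7 and 17.3 in the Jeryak libraries, against 82.5, 98.9 and 126 in the yak libraries. bta-miR-101_R-1, which represses the histone methyltransferase EZH2, had 1862, 754 and 2489.6 in the Jeryak libraries, against 2916, 3631 and 2836 in the yak libraries. The Jeryak values were lower in all 3 libraries for both (log2 fold change -1.72 ± 0.82, SE, limma adjusted p = 0.418 for the first, log2 fold change -1.03 ± 0.50, SE, limma adjusted p = 0.418 for the second). bta-miR-345-5p had 99.8, 135 and 188 in the Jeryak libraries, against 196, 251 and 661 in the yak libraries, with the yak mean set largely by replicate 3 (log2 fold change -1.22 ± 0.65, SE, limma adjusted p = 0.452). The other 3 of this direction, miR-1468, miR-502a_R-2 and miR-11985_L-2, had log2 fold changes of -1.57, -1.90 and -3.59. The limma adjusted p was 0.417 for miR-1468 and 0.497 for miR-502a, and miR-11985 was kept through the yak libraries alone.

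**Figure D3:**
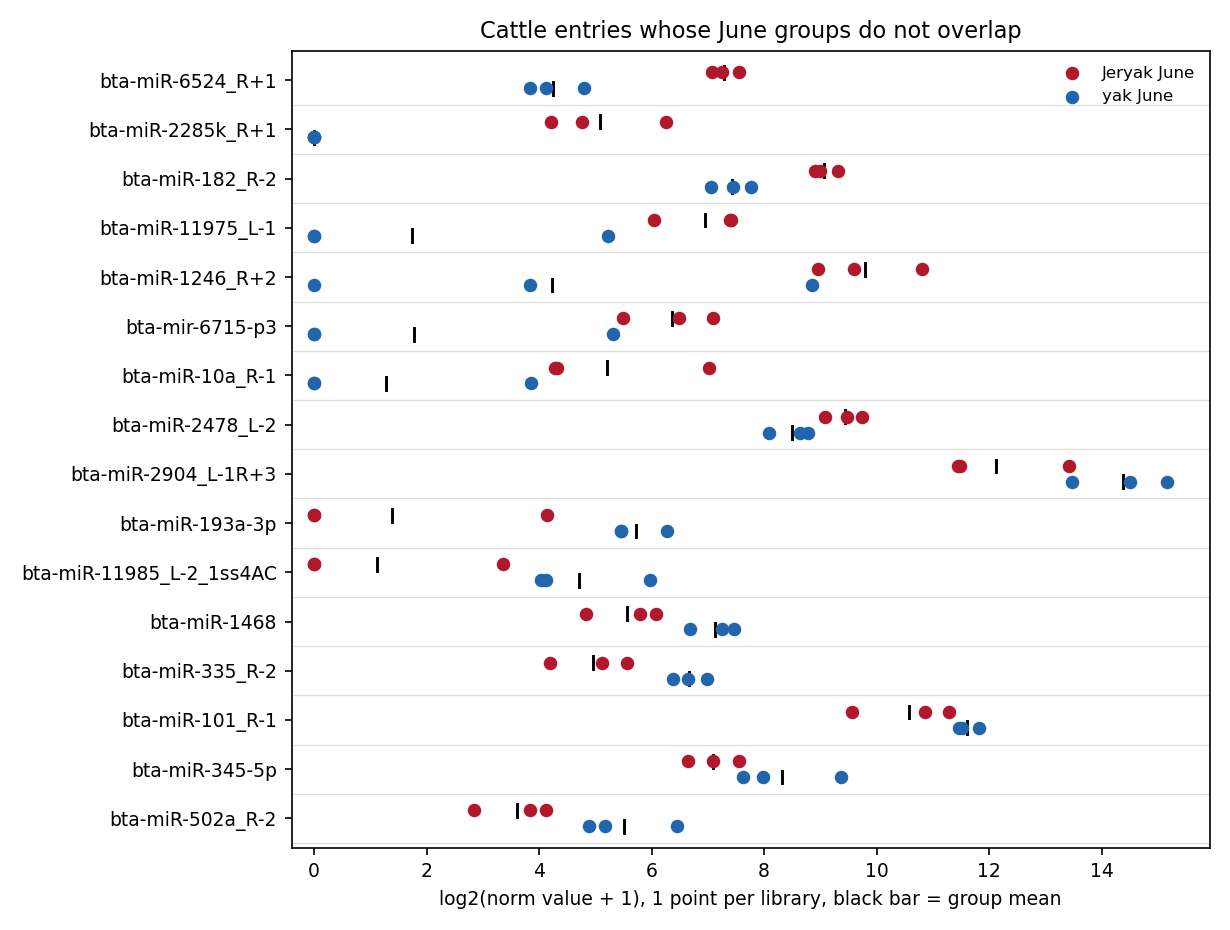
Norm values of the 16 bta entries with the smallest p among those whose groups do not overlap, on the log2(norm value + 1) scale, 1 point per library, Jeryak above yak in each row, with a bar at each group mean. Points at 0 can lie on each other, as for miR-2285k, which is listed at 0 in all 3 yak libraries and at 17.6 to 75.7 in Jeryak.

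Lists of miRNAs were described by the number of members tested, their direction and their median log2 fold change, beside 0.39 for all entries and 0.08 for bta entries. Each median is followed by its range when any 1 of the 6 libraries was left out. No member of any of the 20 lists passed in the 6-library fit, and 2 passed with 12 libraries (miR-193a-3p, and miR-2285k, which was kept through the Jeryak libraries alone). The 18 milk-abundant miRNAs were evenly split, 9 positive and 9 negative, with a median of 0.00 (-0.16 to 0.15). Their summed norm values were 368092, 362151 and 381819 in Jeryak, against 425561, 358542 and 407601 in yak, and these overlapped. The let-7 and miR-98 family, which holds back growth genes, had 6 of 9 members positive and a median of 0.07 (-0.26 to 0.34). Its summed values were 36302, 23476 and 14508 in Jeryak and 30727, 27857 and 11650 in yak.

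The miR-30 family had 1 of 6 members positive and a median of -0.42 (-0.61 without Jeryak replicate 1 to -0.17 without yak replicate 2). Its members miR-30a-5p and miR-30d were lower without overlap, as were 7.58% of all bta entries. bta-miR-30d_R-3 had 11798, 8263 and 12026 in the Jeryak libraries, against 14301, 14228 and 13701 in the yak libraries. Jeryak was lower throughout, and the difference did not pass (log2 fold change -0.42 ± 0.35, SE, limma adjusted p = 0.627). The miR-29 family, which targets collagen messages, had 0 of 3 positive with a median of -0.69 (-0.94 without Jeryak replicate 1 to -0.27 without yak replicate 1). The miR-23, miR-27 and miR-24 clusters had 0 of 5 positive with a median of -0.19 (-0.52 without Jeryak replicate 2 to -0.07 without yak replicate 2). In all 8 the limma adjusted p was 0.507 or higher.

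The miR-183 cluster (miR-182, miR-96 and miR-183), known from sensory organs and epithelia, had 3 of 3 members positive and a median of 1.16 (1.07 to 1.62). bta-miR-183_R-1 had 83.2, 147 and 83.9 in the Jeryak libraries, against 66, 39.7 and 48.3 in the yak libraries, and bta-miR-96_R-2 had 473, 263 and 994 in the Jeryak libraries, against 188, 198 and 298 in the yak libraries. The values of miR-183 did not overlap and those of miR-96 did (log2 fold change 0.99 ± 0.74, SE, limma adjusted p = 0.579 and log2 fold change 1.16 ± 0.61, SE, limma adjusted p = 0.446). The related miR-2284 and miR-2285 sequences, with 125 members in the table and 15 tested, had 12 of 15 positive and a median of 0.53. This median was 0.06 without yak replicate 1, 0.22 without Jeryak replicate 2 and 0.99 without yak replicate 3. Its highest members, miR-2285t and miR-2284x, had log2 fold changes of 0.41 and 0.53.

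Markers of cell types were read the same way. The epithelial list had 7 tested of 8, with a median of -0.08 (-0.41 to 0.17), and its summed values were 105443, 63084 and 79898 in Jeryak and 123326, 93806 and 62287 in yak. miR-200a, miR-200b and miR-200c hold back the factors ZEB1 and ZEB2. Their mean norm values were 26580.4 in Jeryak and 28952 in yak for miR-200a, 23044 in Jeryak and 24811 in yak for miR-200b, and 17429 in Jeryak and 17852 in yak for miR-200c. bta-miR-375_L-1, with mean values of 5512 in Jeryak and 7472 in yak, was lower in Jeryak without overlap (log2 fold change -0.43).

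The immune cell list had 8 tested of 12, with 4 positive and 4 negative and a median of -0.16 (-0.82 to 0.36). The log2 fold changes of its members ran from -1.55 to 0.72. Its summed values were 56374, 43266 and 31803 in Jeryak and 85871, 56581 and 45457 in yak, with miR-21-5p the highest member. The members miR-142-5p and miR-155 were low. Their mean values were 21.9 in Jeryak and 19.3 in yak for miR-142-5p, and 17.4 in Jeryak and 11.7 in yak for miR-155. The red blood cell list had 2 tested of 3, with 0 positive and a median of -1.91 (-2.56 without Jeryak replicate 1 to -0.77 without Jeryak replicate 3). Of these, bta-miR-451_R-2, which is cut by AGO2 without Dicer, had 53.6, 35.8 and 0 in the Jeryak libraries, against 188, 39.7 and 657 in the yak libraries. The values of miR-451 overlapped, with yak replicate 3 far above the rest (log2 fold change -3.77 ± 1.66, SE, limma adjusted p = 0.389), while miR-486 had a log2 fold change of -0.05. The stromal and endothelial list had 5 tested of 10, with 1 positive (miR-10a) and 4 negative, a median of -1.34 (-2.13 without Jeryak replicate 2 to -0.77 without Jeryak replicate 3) and log2 fold changes from -3.39 to 3.92. Its member miR-143 had 189, 341 and 350.4 in the Jeryak libraries, against 997, 242 and 706 in the yak libraries, with a log2 fold change of -0.97. The muscle, liver and neural list had 3 tested of 10, miR-1, miR-122 and miR-128, with a median of -0.11 (-0.40 to 0.10) and log2 fold changes of 2.45, -3.21 and -0.11. The part of blood or stroma in the other differences was not tested.

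The medians of the remaining lists also moved with single libraries. The list of miR-195 with miR-15 and miR-16 (4 tested) had a median of -0.46, which was -1.12 without yak replicate 3 and -0.01 without yak replicate 2. The miR-320 list (1 tested) had 0.61, which was 0.09 without Jeryak replicate 2 and 1.28 without Jeryak replicate 1. The medians were 0.01 (-0.40 to 0.19) for miR-17 to miR-92 (9 tested), 0.01 (-0.11 to 0.25) for miR-148 and miR-152 (3 tested), 0.36 (0.17 to 0.47) for miR-181 (2 tested), 0.39 (0.19 to 0.56) for miR-10, miR-99, miR-100 and miR-125 (7 tested) and -0.76 (-1.06 to -0.51) for miR-193, miR-365 and miR-335 (4 tested). Of 13 miRNAs that the study discusses, 11 were tested, 8 of them positive, with a median of 0.15 (-0.05 to 0.29). The largest of these by size was miR-2478, at 0.93, and let-7c followed with 309, 187 and 69.1 in the Jeryak libraries, against 159, 140.3 and 25.7 in the yak libraries. The let-7c values overlapped (log2 fold change 0.92 ± 0.92, SE, limma adjusted p = 0.7). bta-miR-146b, a brake on NF-kB signalling, had 90.6, 65.3 and 192 in the Jeryak libraries, against 52.8, 64.2 and 73.8 in the yak libraries, and its groups overlapped as well (log2 fold change 0.72 ± 0.75, SE, limma adjusted p = 0.703).

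Both arms were tested for 16 precursors. They had the same sign in 7 and opposite signs in 9. The widest gap was that of miR-193a, whose 5p arm had a log2 fold change of 0.93 and whose 3p arm had -4.35. bta-miR-193a-5p had 571, 2029.5 and 1130.0 in the Jeryak libraries, against 657, 576 and 502 in the yak libraries. For miR-21 the arms had -0.57 (5p) and 2.22 (3p), and neither passed. bta-miR-100_R-1_1ss16AT and bta-miR-99a-5p have the same sequence and the same values, so they count as 1 measurement. In all, 25 tested entries share a sequence with another, and the 516 entries hold 503 sequences.

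Among entries of other species, 22 of 144 did not overlap (15.3%), 10 higher (6.94%) and 12 lower (8.33%) in Jeryak. Of the 22, 4 were kept through 1 breed alone. All entries of this class are named after the precursor that they matched, not after the animal they came from. Most names were of mouse (48 tested) and human (37). On the lower side, 3 entries named mmu-mir-6236 share a run of 15 bases, shown in capitals. They were chosen after their values were seen.
mmu-mir-6236-p5_1ss15CG: ctcaCCTGCCGAATGAACT
mmu-mir-6236-p3_1ss13CG: caCCTGCCGAATGAACTagccctg
mmu-mir-6236-p3_1ss11CG: CCTGCCGAATGAACTagccct

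mmu-mir-6236-p5_1ss15CG had 0, 0 and 0 in the Jeryak libraries, against 196, 66.2 and 272 in the yak libraries. It was listed at 0 in all Jeryak libraries, at least 27.8-fold lower than in yak against the floor of 3 copies, and was kept through the yak libraries alone. mmu-mir-6236-p3_1ss13CG had 87.8, 42.1 and 21 in the Jeryak libraries, against 2797, 264 and 993 in the yak libraries, and mmu-mir-6236-p3_1ss11CG had 72.1, 64.2 and 30.8 in the Jeryak libraries, against 2449, 209 and 714 in the yak libraries. In both, yak replicate 2 was the lowest of its group and still above every Jeryak library (log2 fold change -4.37 ± 0.92, SE, limma adjusted p = 0.0781 and log2 fold change -3.75 ± 0.89, SE, limma adjusted p = 0.133). Since the 3 sequences overlap, they are not independent. Of the 13 tested mir-6236 entries, 4 were lower in Jeryak without overlap (8.33% of all entries of other species were), 2 of them kept through the yak libraries alone. These 4 belong to 1 group of sequences that share runs of bases. Of the 13, 7 were positive, with a median of 0.56. Some positive entries had the same log2 fold change, 1.28 for p3_1, p3_2 and p3_3 and 0.56 for p5_1 and p5_2. The positive entries are therefore fewer measurements than names. Summed, the mir-6236 entries made up 0.325 ± 0.196% of all norm values in Jeryak and 0.487 ± 0.332% in yak (SD, n = 3 each; exact permutation p = 0.4).

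The mir-6240 entries, 11 tested, had 3 lower without overlap, beside the same 8.33%, and 2 positive, with a median of -0.53. The sequences of the 3 lower entries share most of their bases, so they are not independent. The 2 positive entries have the same sequence and the same log2 fold change (0.72), so they count as 1 measurement. mmu-mir-6240-p5, the most abundant, had 1684, 1354 and 2630.2 in the Jeryak libraries, against 12653, 3872 and 8195 in the yak libraries. Every Jeryak library was below every yak library (log2 fold change -2.02 ± 0.51, SE, limma adjusted p = 0.147), and the limma adjusted p with 12 libraries was 0.026. Summed, the mir-6240 entries made up 0.514 ± 0.0599% of all norm values in Jeryak and 1.57 ± 0.689% in yak (SD, n = 3 each; exact permutation p = 0.1, the smallest possible).

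On the higher side, hsa-mir-3976-p3_1ss16AT had 14.8, 14.7 and 27.1 in the Jeryak libraries, against 0, 0 and 0 in the yak libraries, at least 2.7-fold higher in Jeryak against the floor and kept through the Jeryak libraries alone. cja-miR-9984_1ss4CG had 327, 737 and 653 in the Jeryak libraries, against 327, 20.4 and 88.5 in the yak libraries. Its lowest Jeryak value and highest yak value differed by less than 1 norm value (log2 fold change 2.66 ± 0.94, SE, limma adjusted p = 0.243). The other 3 named by the rule, ssc-mir-4332-p5, chi-miR-92a-5p and hsa-miR-4516, had log2 fold changes of 4.47, 4.09 and 3.76, the first of them kept through the Jeryak libraries alone.

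Predicted candidates differed most often, in part through entries that had to differ. At an unadjusted p under 0.05 there were 40 of 161 (24.8%), 10 of them kept through 1 breed alone. Without overlap there were 38 (23.6%), 20 higher in Jeryak (12.4%) and 18 lower (11.2%). Of the 38, 11 were kept through 1 breed alone, among them the first 5 described here. PC-3p-38692_154 had 46.2, 192 and 93.8 in the Jeryak libraries, against 0, 0 and 0 in the yak libraries. It was listed at 0 in all yak libraries and was at least 15.8-fold higher in Jeryak (9.99-fold without Jeryak replicate 2). This bound and those below take the set floor of 3 copies. The commonest value of candidates was 5 copies in every June library, and 4.77% of their values above 0 were under 5 copies. PC-5p-95412_48 and PC-5p-56366_96 were also at 0 in yak, with 27.7, 75.8 and 27.1 in the Jeryak libraries, against 0, 0 and 0 in the yak libraries for the first. They were at least 6.22-fold and at least 9.64-fold higher in Jeryak (3.92-fold and 2.73-fold without Jeryak replicate 2).

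PC-3p-9570_769 had 0, 0 and 0 in the Jeryak libraries, against 1339.8, 52.5 and 359.6 in the yak libraries, and PC-3p-43357_134 had 0, 0 and 0 in the Jeryak libraries, against 363, 27.5 and 231 in the yak libraries. Both were listed at 0 in every Jeryak library, and yak replicate 2 was the lowest of its group (at least 90.9-fold and at least 32.3-fold lower in Jeryak). Yak replicate 1 carried much of both bounds, which were 32.1-fold and 20.1-fold without it. PC-5p-384_17873 had 0, 88.4 and 14.8 in the Jeryak libraries, against 10709, 14613 and 738 in the yak libraries. All Jeryak values were far below the lowest yak value, that of replicate 3 (log2 fold change -8.76 ± 1.63, SE, limma adjusted p = 0.0767). PC-5p-1462_5078 had 418, 1221 and 491 in the Jeryak libraries, against 3406, 3191 and 2931 in the yak libraries, with yak libraries close together and Jeryak replicate 2 the highest of its group (log2 fold change -2.33 ± 0.49, SE, limma adjusted p = 0.0781). PC-5p-24163_273 had 31.4, 12.6 and 0 in the Jeryak libraries, against 587, 253 and 531 in the yak libraries (log2 fold change -5.82 ± 1.29, SE, limma adjusted p = 0.0935).

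**Figure D4:**
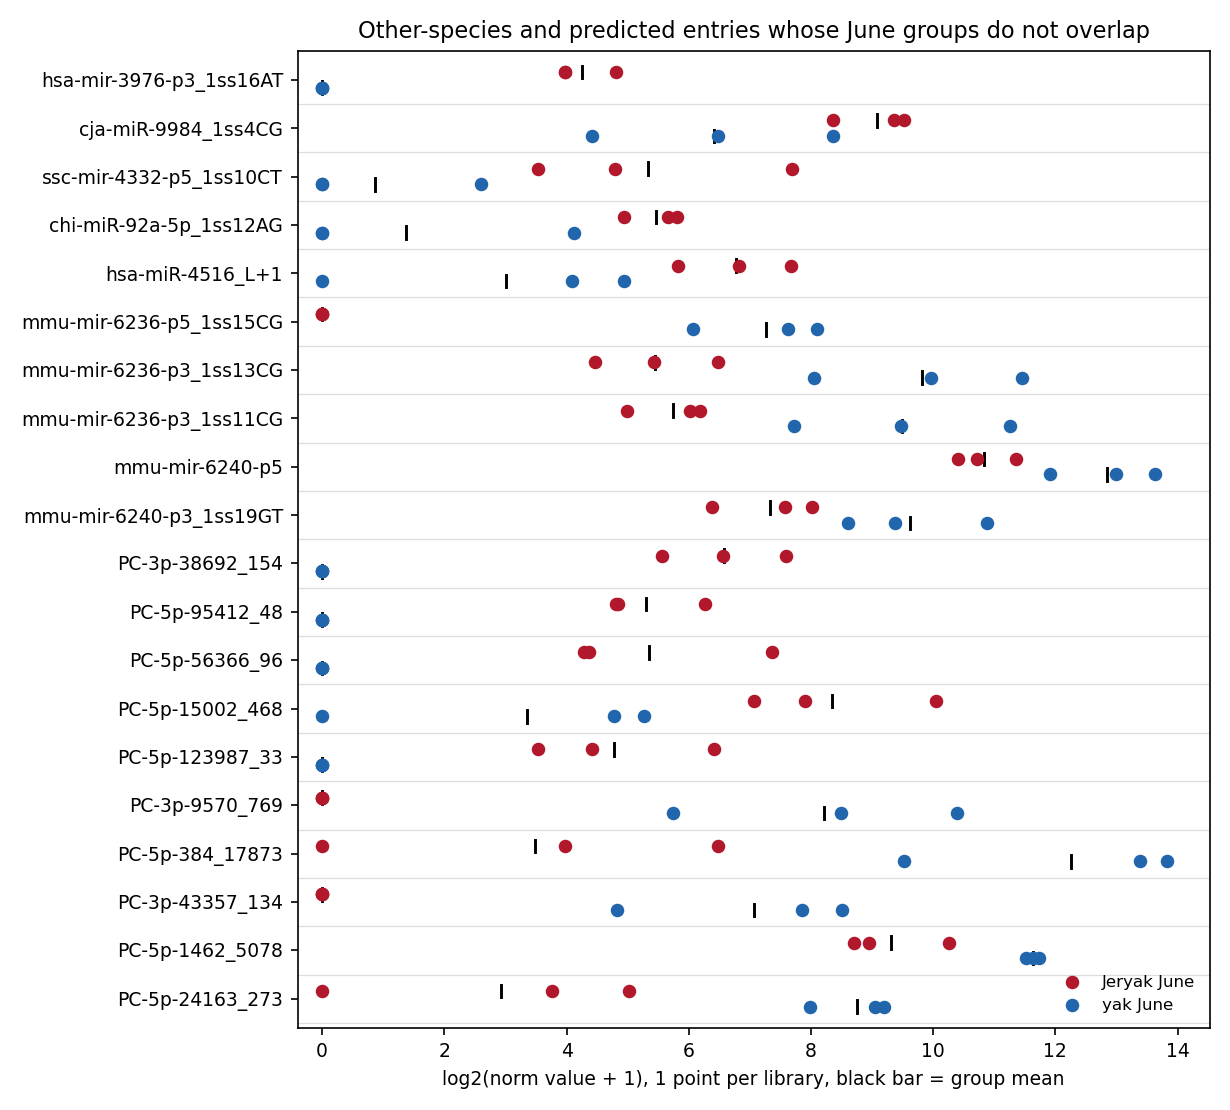
Norm values of the entries of other species and the predicted candidates with the smallest p among those whose groups do not overlap, on the log2(norm value + 1) scale, 1 point per library, Jeryak above yak in each row, with a bar at each group mean. Several entries are at 0 throughout 1 breed, such as PC-3p-38692_154 in yak and PC-3p-9570_769 in Jeryak. These passed the filter through the other breed alone and so had to differ.

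The base composition was described for the entries without overlap, with no test. Of the 46 higher entries, 9 were kept through the Jeryak libraries alone, and of the 46 lower entries, 8 through the yak libraries alone. Among candidates these were 6 of the 20 higher and 5 of the 18 lower. They had to be without overlap, and the composition without them was not computed. Of the 46 entries higher in Jeryak, 15 (32.6%) had at least 70% G and C, against 5 of the 46 lower entries (10.9%) and 16.1% of all tested entries. Among candidates it was 9 of 20 higher (45%), 1 of 18 lower (5.56%) and 23.6% of those tested, and among entries of other species 5 of 10 higher (50%), 1 of 12 lower (8.33%) and 20.1% of those tested. The bta entries went the other way, with 1 of 16 higher (6.25%), 3 of 16 lower (18.8%) and 7.58% of those tested. Summed over all entries of this kind, the share of norm values was 4.74 ± 1.57% in Jeryak and 5.55 ± 2.15% in yak (SD, n = 3 each; exact permutation p = 0.5), and for bta entries alone 1.25 ± 0.899% in Jeryak and 3.61 ± 1.69% in yak (exact permutation p = 0.2). The bta share holds the abundant miR-2904, described above as lower in Jeryak, so a single entry can carry much of it. The share without miR-2904 was not computed.

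The same entries were then read in December milk, in libraries with 0.127 to 1.86 norm values per copy. Of the 516 entries, 149 were listed at 0 in all December libraries, among them 130 of the 161 candidates and none of the bta entries. Of the 211 bta entries, 132 had the same sign in both months and the correlation of their log2 fold changes was 0.44, a description over entries that share their libraries. For the other species it was -0.07. In 13 entries the groups did not overlap in the same direction in both months, 9 of them bta entries. Of these bta entries, miR-2285k was kept through the June Jeryak libraries alone and miR-11985 through the June yak libraries alone. The June difference of both therefore had to be there. Of the 16 bta entries higher in Jeryak in June, 5 were so in December (20.4% of tested bta entries were). Of the 16 lower bta entries, 4 were (9% of tested bta entries). Of the 46 entries higher in Jeryak in June, 7 were so in December (12.6% of all tested entries were), and of the 46 lower entries, 6 were (9.3% of all). Of these, miR-6524 had a log2 fold change of 3.04 in June and 6.86 in December, and miR-182 had 1.64 in June and 2.97 in December. miR-2904 had -2.25 in June and -2.13 in December.

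The breed difference itself was compared between months in a limma fit to the 12 libraries, and 20 entries (3.88%) passed, of which 11 were kept through 1 June breed alone. Only 1 of them, miR-6524, was a bta entry (0.474%), with an interaction of -3.82 on the log2 scale (limma adjusted p = 0.0228), a smaller difference in June than in December. The size of this interaction hung on the pseudocount, since it was -1.10 with a pseudocount of 10. Its limma adjusted p missed 0.05 with a pseudocount of 10 (0.386), with the replicate number as a block (0.0726), without any of the 3 Jeryak December libraries (0.0878 to 0.116) and without yak December replicate 2 (0.0562) or 3 (0.0734). Leaving out libraries moved the count between 5 (without Jeryak December replicate 2) and 32 (without yak June replicate 1), and the count therefore depended on single libraries. Month and any batch of library making cannot be told apart.

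**Figure D5:**
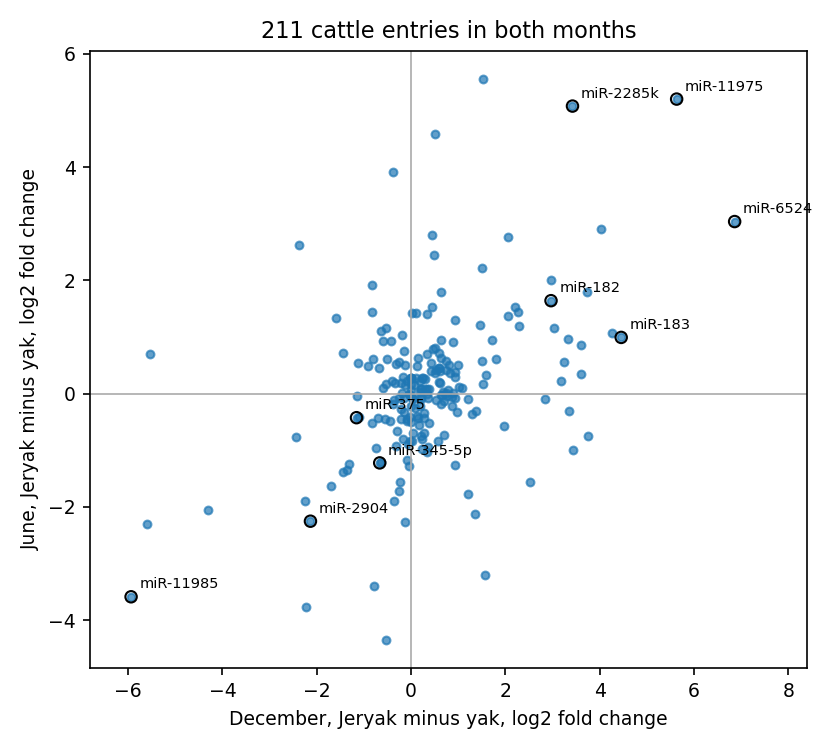
Log2 fold change of Jeryak against yak in June (vertical axis) and December (horizontal axis) for the 211 tested bta entries. Circles and names mark the bta entries whose groups did not overlap in the same direction in both months, with miR-6524, miR-2285k and miR-11975 at the upper right and miR-11985 at the lower left. In June miR-2285k was kept through the Jeryak libraries alone and miR-11985 through the yak libraries alone.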

How the data were processed

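Small RNA libraries (TruSeq) of milk exosomes were sequenced on an Illumina instrument. The authors used ACGT101-miR to remove adapters, low-complexity reads, common RNA families and repeats. The reads left were assigned to cattle precursors in miRBase, then to those of other animals, allowing end variation and a mismatch, and the rest gave candidates folded from a genome (build: not given in the sources used here). The deposited norm values are a signal, the copy number of an entry multiplied by 1 correction factor per library. They are not whole reads, so no count test was used, and a low value rests on few copies. The norm value of 1 copy was read from the steps of the candidates' values, and 92.9 to 97.0% of the candidates' values, against 76.8 to 85.9% of all values above 0, lay within 0.01 copies of a whole number in June.

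Norm values plus 1 were taken to log2 and analysed in R 4.3.3 by limma 3.58.1 with a variance trend over the 6 June libraries. P-values were adjusted by Benjamini and Hochberg over the 516 entries, with 0.05 as threshold. The difference between months used all 12 libraries. Shares were compared by exact permutation. Python 3.11.15 was used with numpy 2.4.6, scipy 1.17.1 and pandas 2.3.3. The fit was also run on simulated copies with set changes and a set spread between libraries, not matched to the spread of these data. No result here rests on that run. Replicate numbers were not used to pair the libraries in the main fit. Entries named are the 8 highest miRBase entries, in each direction up to 8 bta entries, 5 entries of other species and 5 candidates with the smallest p among those without overlap, bta entries that passed with 12 libraries, the miRNAs the study discusses and the 3 highest members of each list. Others were chosen after their values were seen. The members and lists were chosen with earlier results of these data known. Other scalings, pseudocounts, filters, tests and sets of libraries were tried as alternatives. Of the table, 1 line is not analysed here.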

Additional observations from a re-analysis of the deposited data

Results flagged for a closer look

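In 10 entries the difference between Jeryak and yak was not the same in June and December by the interaction term of a limma fit to the 12 libraries (adjusted p under 0.05; a positive value means a larger Jeryak excess in June). They are among the entries named in the report. In 7 of them the fitted December difference was 0, so the interaction equals the June difference. Those higher in Jeryak in June were PC-3p-38692_154 with 6.57, PC-5p-56366_96 with 5.34, PC-5p-95412_48 with 5.31, PC-5p-123987_33 with 4.78 and hsa-mir-3976-p3_1ss16AT with 4.26. Those lower in Jeryak in June were PC-5p-384_17873 with -8.76, PC-3p-9570_769 with -8.21, mmu-mir-6236-p5_1ss15CG with -7.61 and PC-3p-43357_134 with -7.60. bta-miR-6524_R+1 had -3.82 (-1.10 with a pseudocount of 10), since its difference was in the same direction in both months and larger in December. Of the 10, 8 (all but PC-5p-384_17873 and bta-miR-6524_R+1) had passed the filter through 1 June breed alone, so their June difference had to be there, and no weight is put on their calls. That of PC-3p-43357_134 was lost without Jeryak December replicate 2 (limma adjusted p = 0.0527). Calls were also lost for PC-5p-123987_33, PC-5p-384_17873, PC-5p-56366_96, PC-5p-95412_48, hsa-mir-3976-p3_1ss16AT and bta-miR-6524_R+1. These 6 were lost with the replicate number as a block (0.0702 to 0.101), without any of the 3 Jeryak December libraries and without yak December replicate 2 or 3. All of them but PC-5p-384_17873 were lost with a pseudocount of 10 (0.0513 to 0.386). PC-5p-384_17873 was also lost without Jeryak June replicate 3 or yak June replicate 1 or 2. Also lost without yak December replicate 1 were PC-5p-123987_33, PC-5p-384_17873, PC-5p-56366_96 and hsa-mir-3976-p3_1ss16AT.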

How the results depend on the processing

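The June comparison had no entry past the threshold with 6 libraries, and none when any library was left out (0 to 0). It had 29 with all 12 libraries in the fit, 5 with a pseudocount of 10 (0 higher and 5 lower in Jeryak), 26 without a filter (9 higher, 17 lower) and 22 by the study test. No member of a list passed except 2 with 12 libraries and 3 by the study test, and leaving out a library gave 0 to 0. The interaction, 20 entries with all libraries, had 13 with a pseudocount of 10, and 5 to 32 with a library left out. It was 32 without yak June replicate 1, 5, 6 and 10 without Jeryak December replicates 2, 1 and 3, and 9 and 6 without yak December replicates 2 and 3. With the replicate number as a block it was 9, and the June count stayed at 0. The correlations of same-numbered libraries were 0.126, -0.013 and 0.124, and those of the other pairs ran from -0.224 to 0.113. So few libraries cannot decide whether a shared number marks a shared batch. The causes of these moves were not tested. For some entries with a group at 0 the study test gave no finite fold, and they have no value there. The fold bounds without single libraries were added after the data were seen. Depth limits all low entries, since a norm value of 10 is 3.03 to 9.81 copies.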
